A study of Homo sapiens with 4 samples.

Results

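Matrix metalloproteases (MMPs) and the related ADAM and ADAMTS proteases, with the inhibitor TIMP2, were compared in SCC1 and FaDu, 2 human lines of head and neck squamous carcinoma that received a siRNA against FOSL1 or a control siRNA. The 9 genes, MMP1, MMP2, MMP3, MMP10, MMP12, MMP13, TIMP2, ADAM19 and ADAMTS6, were taken by symbol from the authors' 2 tables, which list 2770 different genes between them. RNA was taken 48 h after siRNA from SCC1 cells with control siRNA, SCC1 cells with FOSL1 siRNA, FaDu cells with control siRNA and FaDu cells with FOSL1 siRNA, all kept in DMEM with serum. Each of these 4 groups had 1 library, so nothing shows how far a value varies between cultures, and no test between conditions was made. FaDu is an established line from a carcinoma of the hypopharynx, and the labels call SCC1 only by that name. Each line was grown alone in culture, so the matrix and stroma of a tumour are not represented.

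MMPs are zinc-dependent proteases that are made as inactive zymogens and cleave collagens and other matrix proteins once their propeptide is removed. TIMPs bind and block the active enzymes. ADAM proteases sit in the membrane and shed the outer parts of other membrane proteins, while ADAMTS proteases are secreted and act in the matrix. FRA1, the product of FOSL1, pairs with JUN proteins to form AP-1, a transcription factor that binds the motif TGANTCA best where N is C or G, and collagenase and stromelysin genes are textbook AP-1 targets. Squamous carcinomas are known for making collagenases and stromelysins.

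Promoter sequence is shown first, because AP-1 acts by binding DNA. Of the 9 genes, MMP10, ADAM19 and ADAMTS6 have an entry in the RefSeq promoter table used here (build GRCh38.p14), which holds 250 bases before and 50 bases after each gene's start. MMP10 is set beside MMP7, a gene of the same cluster on chromosome 11 that neither table lists, because both hold a match at the same distance from the start. Capitals mark TGANTCA and the TATA motif TATAAA. Both sequences read 5′ to 3′ on the gene's strand, the minus strand, and end at the last base before the start. MMP10 is at chr11:102780629-102780878 and MMP7 at chr11:102530748-102530997.
MMP10: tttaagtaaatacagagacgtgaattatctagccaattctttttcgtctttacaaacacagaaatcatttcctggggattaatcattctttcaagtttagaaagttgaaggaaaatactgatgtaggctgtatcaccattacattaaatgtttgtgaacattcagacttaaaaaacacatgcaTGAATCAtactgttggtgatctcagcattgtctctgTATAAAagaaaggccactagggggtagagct
MMP7: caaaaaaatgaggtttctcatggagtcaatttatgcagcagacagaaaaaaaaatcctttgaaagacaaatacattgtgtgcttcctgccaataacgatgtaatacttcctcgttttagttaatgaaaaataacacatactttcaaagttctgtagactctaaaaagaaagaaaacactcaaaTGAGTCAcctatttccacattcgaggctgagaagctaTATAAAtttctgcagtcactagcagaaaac

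In both genes the match spans bases -67 to -61, counted back from the start. MMP7 carries TGAGTCA, a sequence that AP-1 binds well, and MMP10 carries TGAATCA. The TATA motif begins at base -31 in MMP10 and at base -30 in MMP7. Over all 35116 promoters in the table, searched on both strands (TGANTCA is its own reverse complement), 7.71% of the 300-base windows held TGANTCA, 4.95% held it with C or G at N, and 11.5% held TATAAA. The ADAM19 window held none of these motifs and is rich in G and C, at 76.4% of the 250 bases before the start against 34.4% for MMP10. A match is a run of letters in a window and does not show that the factor binds there.

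The ADAMTS6 window held no TGANTCA but held TGACGTCA, the CRE-type palindrome that dimers of ATF and JUN proteins bind. That motif was searched after the sequences had been seen, and was found in 1.85% of all windows. No other motif searched was in the ADAMTS6 window. It is shown in capitals with the 60 bases before the start and the 10 bases after it, on the minus strand at chr5:65481911-65481980.
ADAMTS6: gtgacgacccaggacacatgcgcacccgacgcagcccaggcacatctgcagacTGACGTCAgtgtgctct

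Levels are given as CPM, the reads of a gene relative to the library size, and as the whole reads recovered from them. Effective library sizes ran from 10365774 to 13242163 reads. Folds are ratios of CPM, each followed by its 95% exact binomial interval in parentheses. These intervals cover counting error only and take reads as independent molecules, which PCR reads without molecular identifiers are not. The authors' FDRs quoted below also rest on 1 library per group, so they do not measure variation between cultures. Their p-values were matched within 1% by a test in which the variance setting, a dispersion of 0.05, was assumed and not estimated. FOSL1 itself stood at 132.6 CPM in the SCC1 control and 3.99 CPM after FOSL1 siRNA, 33.2-fold lower (24.7 to 45.7). In FaDu its level was 773.8 CPM in the control and 36.9 CPM after siRNA, 20.9-fold lower (18.9 to 23.3). The targeted gene thus lay in the direction of the labels in both lines. Of 16 squamous epithelial markers, the tables list 3 in SCC1 (18.8%) and 4 in FaDu (25%), beside 13.8% and 11.2% of all genes tested. In the SCC1 control PERP stood at 297.8 CPM, CDH1 at 100.8 and DSC3 at 16.0, and all were higher after FOSL1 siRNA. In the FaDu control KRT17 stood at 793.7 CPM, DSC3 at 86.9, PKP1 at 21.2 and KRT16 at 4.79. After siRNA in FaDu, DSC3 was lower and the other 3 were higher. The markers that are not listed could not be checked.

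The SCC1 table lists 2 of the 9 genes, both higher after FOSL1 siRNA. The FaDu table lists 8, of which 7 were lower and 1 was higher. As background, the SCC1 table lists 13.8% of the 13796 genes that the authors tested, 5.60% as higher and 8.19% as lower. The FaDu table lists 11.2% of 13796, 4.76% as higher and 6.44% as lower. The 9 genes were chosen with these tables known, so nothing is read from their counts. TIMP2 was the gene listed in both lines. Every listed gene differed by at least 1.88-fold in either table, and a gene that a table does not list is not called unchanged.

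**Figure D1:**
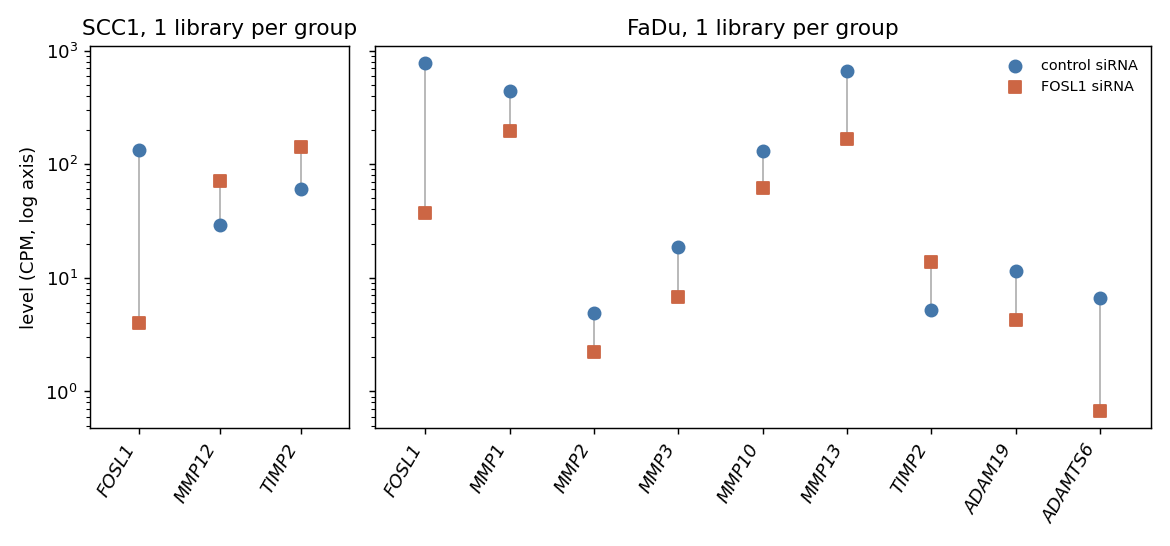
Level of FOSL1 and of the listed genes in each library, in CPM on a log axis, with SCC1 on the left and FaDu on the right; circles are control siRNA, squares are FOSL1 siRNA, and each point is 1 library. In FaDu the squares lie below the circles for every gene drawn except TIMP2, and in SCC1 MMP12 and TIMP2 have the square above the circle.

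The collagenases, which cut fibrillar collagen, had the most reads of the 8 genes listed in FaDu. MMP13 had 666.1 CPM in the FaDu control, from 7645 reads, and 165.3 CPM with FOSL1 siRNA, from 1713 reads. It was 4.03-fold lower (3.82 to 4.25), and the authors' deposited table gives it an FDR of 0.00242. MMP1, the interstitial collagenase, had 443.9 CPM in the FaDu control and 196.1 CPM after siRNA. It was 2.26-fold lower (2.15 to 2.38), with an FDR of 0.177 in the authors' deposited table. Counting error is small for both collagenases, so the interval of the one lies clear of the interval of the other.

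Levels of different genes were compared as CPM per kilobase of merged exons. In the FaDu control MMP13 stood at 235.0 CPM per kilobase and MMP1 at 225.3, close to each other. After FOSL1 siRNA the order was the other way round, with MMP1 at 99.6 CPM per kilobase and MMP13 at 58.3. The order changed in the same way with the length of the longest coding transcript, where MMP13 went from 245.2 to 60.8 CPM per kilobase and MMP1 kept its values.

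The stromelysins cleave many matrix proteins and activate the zymogens of collagenases. MMP10, also called stromelysin-2, had 129.8 CPM in FaDu with control siRNA and 61.5 CPM with FOSL1 siRNA, from 1490 and 638 reads. It was 2.11-fold lower (1.92 to 2.32), with an FDR of 0.264 in the authors' deposited table. MMP3, also called stromelysin-1, had 18.7 CPM in the control and 6.75 CPM after siRNA, from 215 and 70 reads. It was 2.77-fold lower (2.11 to 3.69), with an FDR of 0.0863 in the authors' deposited table. Per kilobase, MMP10 was above MMP3 in both FaDu libraries, at 73.8 against 9.15 in the control and 35.0 against 3.30 after siRNA.

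Together MMP1, MMP3, MMP10 and MMP13 had 14445 reads in FaDu with control siRNA and 4454 with FOSL1 siRNA, a sum of 1259 CPM against 429.7 CPM. The sum was 2.93-fold lower (2.83 to 3.03). MMP13 made up 52.9% of the summed CPM in the control and 38.5% after siRNA. These 4 genes and MMP12 lie next to one another on chromosome 11, in the order MMP10, MMP1, MMP3, MMP12 and MMP13 among protein-coding genes of the RefSeq annotation. MMP7, MMP20, MMP27 and MMP8 precede them in that order and are in neither table.

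**Figure D2:**
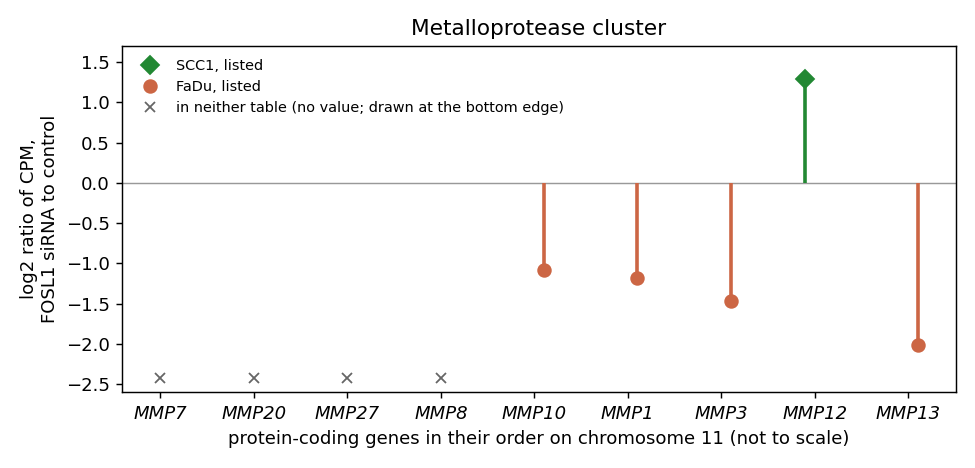
Log2 ratio of CPM, FOSL1 siRNA to control, for the 9 protein-coding genes from MMP7 to MMP13 in their order on chromosome 11; circles are FaDu, the diamond is SCC1, and crosses at the bottom edge mark genes without a value in either table. The FaDu values lie between -2.01 for MMP13 and -1.08 for MMP10, and the SCC1 value of MMP12 lies at 1.29.

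MMP12, macrophage metalloelastase, lies between MMP3 and MMP13 and was listed in SCC1 alone. It had 29.1 CPM in the SCC1 control and 71.4 CPM after FOSL1 siRNA, from 386 and 806 reads. It was 2.45-fold higher (2.17 to 2.77), and the authors' deposited table gives an FDR of 0.106. Its FaDu level is not in the table, so the lines cannot be compared for this gene. Macrophages are known to make MMP12. Of 14 leukocyte markers the SCC1 table lists 1, or 7.14%, beside 13.8% of all tested genes. It was CD68, at 17.3 CPM in the control and 3.99 CPM after siRNA, the opposite direction to MMP12. No listed marker was at 0 reads. SCC1 was grown alone, so CD68 does not show that leukocytes were present. The part of other cells in the MMP12 value was not tested.

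MMP2, gelatinase A, degrades denatured collagen and basement membrane collagen. It had 4.88 CPM in FaDu with control siRNA and 2.22 CPM with FOSL1 siRNA, from 56 and 23 reads. It was 2.20-fold lower (1.33 to 3.74), with an FDR of 0.416 in the authors' deposited table, and its interval starts lower than that of any other lower gene among the 9. MMP2 is typical of fibroblasts. Of 14 fibroblast markers the FaDu table lists 4, or 28.6%, beside 11.2% of all tested genes. Their summed level was 17.9 CPM in the control and 16.1 CPM after siRNA, with none at 0 reads. COL3A1 (7.84 to 2.22 CPM), COL6A3 (23 to 7 reads) and POSTN (6.88 to 3.28 CPM) were lower and S100A4 (1.13 to 9.94 CPM) was higher. Their part in the MMP2 value was not tested. FaDu was grown alone, so these markers do not show that fibroblasts were present.

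TIMP2 inhibits MMPs and, with the membrane protease MMP14, also takes part in activating the MMP2 zymogen. In SCC1 it had 60.5 CPM in the control and 140.5 CPM after FOSL1 siRNA, from 801 and 1585 reads. In FaDu it had 5.23 CPM in the control and 13.8 CPM after siRNA, from 60 and 143 reads. FOSL1 siRNA thus went with a 2.32-fold higher TIMP2 level in SCC1 (2.13 to 2.53) and a 2.64-fold higher level in FaDu (1.94 to 3.63). The FDRs in the authors' deposited tables were 0.135 and 0.125.

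Of the 678 genes listed in both tables, 655 had the same direction in both, so a shared direction is not particular to TIMP2. The FaDu ratio of TIMP2 was 1.14 times the SCC1 ratio, with a 95% Wald interval for counting error from 0.831 to 1.55. A difference between the lines was thus not detectable at this depth. The level differed far more than the ratio: the SCC1 control had 11.6 times the CPM of the FaDu control, and the SCC1 library with FOSL1 siRNA 10.2 times that of its FaDu counterpart. These levels are set across tables that were normalized separately. The 3 genes nearest to TIMP2 in their pair of log2 ratios, among 535 genes reaching 5 CPM in both tables, were DOK4, RHOV and CDC37L1, at distances of 0.036, 0.041 and 0.055. That likeness rests on 2 ratios per gene. DOK4 had log2 ratios of 1.25 in SCC1 and 1.40 in FaDu, against 1.22 and 1.40 for TIMP2.

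ADAM19, a sheddase known to cleave neuregulin, had 11.5 CPM in FaDu with control siRNA and 4.24 CPM with FOSL1 siRNA, from 132 and 44 reads. It was 2.71-fold lower (1.91 to 3.90), with an FDR of 0.124 in the authors' deposited table. ADAMTS6, a secreted protease that acts on fibrillin microfibrils, had 6.62 CPM in the FaDu control and 0.675 CPM after siRNA, from 76 and 7 reads. It was 9.81-fold lower (4.53 to 25.2), the largest fold among the values that the tables give for the 9 genes, and 40th of the 889 lower genes of the FaDu table by that measure. The authors' deposited table gives ADAMTS6 an FDR of 0.000235. ADAMTS6 had the fewest reads of the 8 listed genes after siRNA, which is why its interval is wide.

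Among the 7 lower genes in FaDu, log2 ratios ran from -1.08 for MMP10 to -3.29 for ADAMTS6. Of their 21 pairs, 11 had a 95% Wald interval of the difference that leaves out 0, counting error alone being considered and the intervals not adjusted for the number of pairs. All 11 involve MMP13 or ADAMTS6. The log2 ratio of MMP13 minus that of MMP1 was -0.83 (-0.94 to -0.73). The log2 ratio of ADAM19 minus that of MMP13 was 0.57 (0.08 to 1.07), ADAM19 being the less lowered. For ADAMTS6 minus MMP13 it was -1.28 (-2.40 to -0.16). The ratios of MMP1, MMP2, MMP3, MMP10 and ADAM19 could not be told apart within counting error. MMP10 minus MMP1 was 0.10 (-0.05 to 0.25), and MMP3 minus MMP1 was -0.29 (-0.69 to 0.10).

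**Figure D3:**
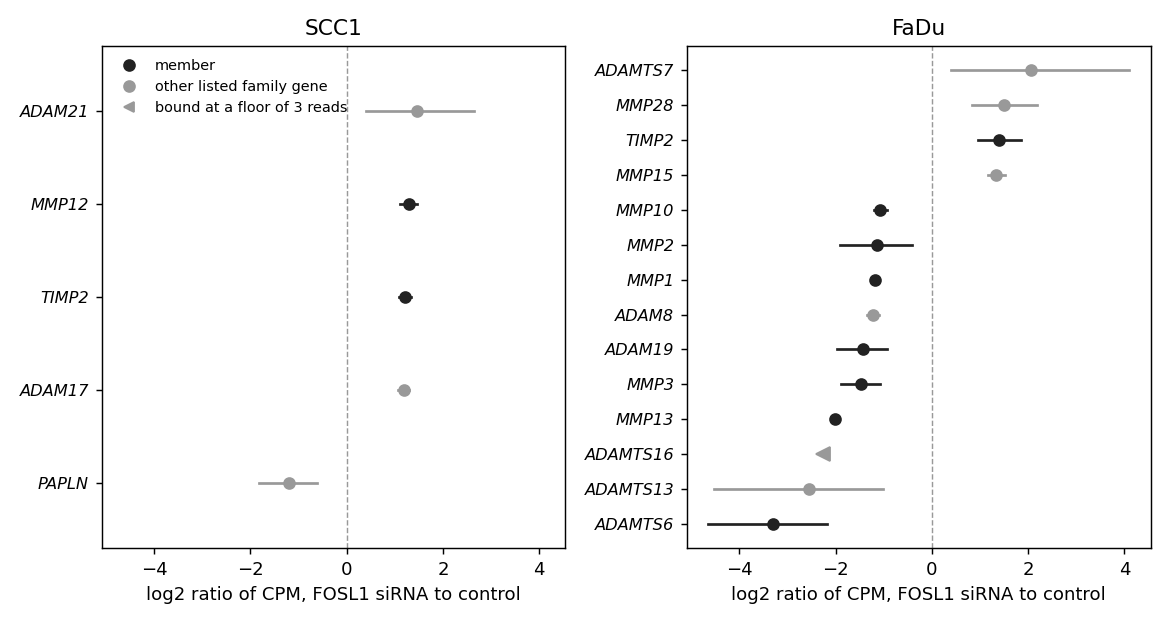
Log2 ratio of CPM, FOSL1 siRNA to control, for each metalloprotease family gene that a table lists, with SCC1 on the left and FaDu on the right; bars are 95% exact binomial intervals for counting error, black marks are the 9 genes described here, grey marks are other family genes, and the arrowhead is a bound. ADAMTS6 has the lowest ratio among the black marks, at -3.29, with a wide bar, and MMP13 at -2.01 has a bar shorter than its mark.

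The other genes of the family were taken from a list of 83 MMPs, ADAMs, ADAMTS and ADAMTS-like proteins, astacins and inhibitors. Besides the 9 genes it holds 74, of which 6, or 8.11%, were listed in FaDu and 3, or 4.05%, in SCC1. Both shares are below the 11.2% and 13.8% of all tested genes, but how many of the 74 were tested is not known. Taking out the 9 genes, each listed in at least 1 table, also lowers these shares by construction, so nothing is read from them. With the 9 included, 16.9% of the 83 were listed in FaDu and 6.02% in SCC1. Of the listed genes among the 74, 3 were lower and 3 higher in FaDu, and 1 was lower and 2 were higher in SCC1. Their median log2 ratio was 0.06 in FaDu and 1.18 in SCC1, beside -1.01 and -1.05 for all listed genes. The FaDu median falls between MMP15 at 1.34 and ADAM8 at -1.22. It describes no gene, because the tables list none near 0. The SCC1 median is that of 3 genes. With the 9 genes included, which were chosen with the tables known, 10 family genes were lower and 4 higher in FaDu, and 1 was lower and 4 were higher in SCC1. MMP9, MMP14, TIMP1, TIMP3, ADAM9 and ADAM10 were in neither table.

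In FaDu, ADAM8, a sheddase of leukocytes and carcinoma cells, went from 192.3 to 82.3 CPM and was 2.34-fold lower (2.16 to 2.53). The membrane-type protease MMP15 went from 35.5 to 89.8 CPM, 2.53-fold higher (2.25 to 2.85). MMP28, epilysin, a protease known from keratinocytes, was 2.81-fold higher (1.79 to 4.52), at 2.44 and 6.85 CPM. None of these 3 genes had an FDR under 0.05 in the authors' deposited table.

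The FaDu table also holds ADAMTS genes with few reads. ADAMTS13, which cleaves von Willebrand factor, had 26 reads with control siRNA and 4 with FOSL1 siRNA, 5.87-fold lower (2.04 to 23.1). ADAMTS16 had 16 reads in the control and 0 after siRNA, at least 4.82-fold lower when the empty library is set to a floor of 3 reads, with an exact binomial lower limit of 3.48-fold. ADAMTS7 had 4 reads in the control and 15 after siRNA, a ratio of 4.15 (1.32 to 17.2). In the authors' deposited table their FDRs were 0.057, 0.00422 and 0.249.

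In SCC1, ADAM17, the sheddase of TNF and of EGFR ligands, went from 75.1 to 170.3 CPM, 2.27-fold higher (2.10 to 2.45). ADAM21 had 11 and 26 reads, 2.77-fold higher (1.32 to 6.22). PAPLN, which encodes the matrix protein papilin, was 2.30-fold lower (1.54 to 3.52), at 6.95 and 3.01 CPM. None of the 5 family genes listed in SCC1 had an FDR under 0.05 in the authors' deposited table, beside 27.4% of all genes listed there and 3.78% of all 13796 tested genes. In FaDu 3 of the 14 listed did, MMP13, ADAMTS6 and ADAMTS16, beside 25.4% of all listed genes and 2.85% of all tested genes. MMP13 and ADAMTS6 are among the 9 chosen genes, so of the others listed in FaDu 1 of 6 did.

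**Figure D4:**
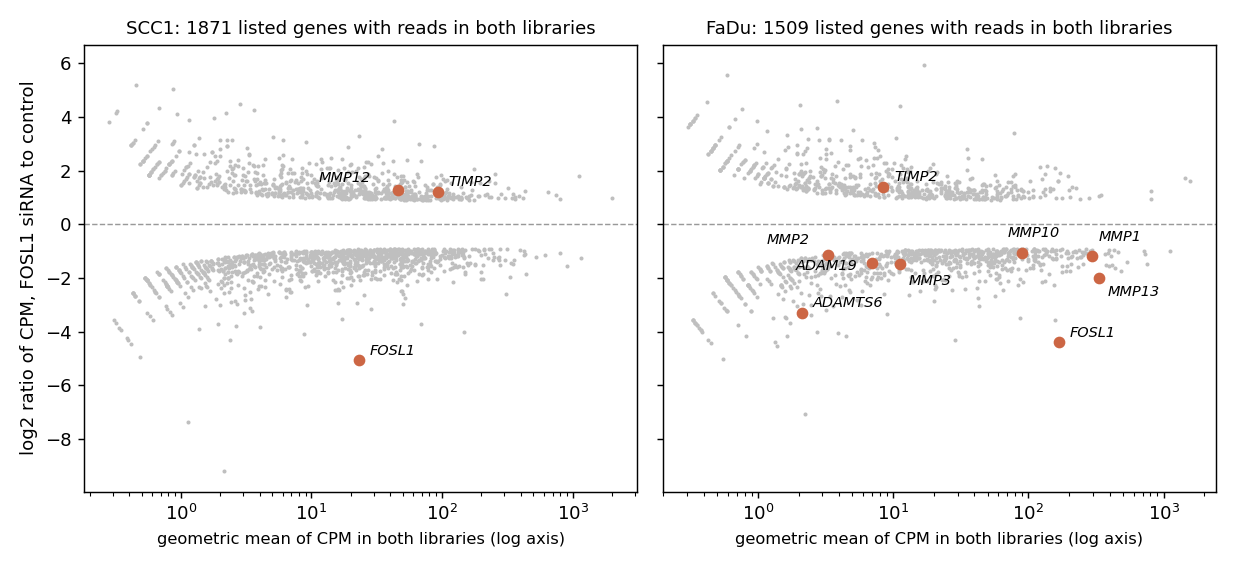
Log2 ratio of CPM, FOSL1 siRNA to control, against the geometric mean of CPM in both libraries on a log axis, for each listed gene with reads in both libraries; SCC1 is on the left, FaDu on the right, and the named points are FOSL1 and the genes described here. The empty band around 0 holds the genes that the tables do not list. MMP10, MMP1 and MMP2 lie near that band in FaDu, and ADAMTS6 lies farther from it at a low level.

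Some sequence is shared with other genes, which matters because the strand setting of the counting is not given. Counted in 50-base windows of the longest coding transcript, MMP3 and MMP10 share 59 windows, 3.45% of the windows of MMP10. MMP1 shares 2.92% with the opposite strand of the pseudogene WTAPP1, and TIMP2 shares 13.0%, mostly with the opposite strand of a noncoding gene. MMP12, MMP13, ADAM19 and ADAMTS6 share none. The values of ADAM17, with 28.1% shared, ADAM21, with 26.8%, and ADAMTS7, with 21.6% shared with pseudogenes, are uncertain for that reason.

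Of 21 genes tied directly or indirectly to the activation of metalloprotease zymogens, 3 were listed in each line, or 14.3%. That share is near the 13.8% of all tested genes in SCC1 and the 11.2% in FaDu. PLAT, tissue plasminogen activator, was lower in both lines, going from 44.0 to 5.76 CPM in SCC1 and from 25.2 to 11.7 CPM in FaDu. In SCC1 the proprotein convertase gene PCSK6 was 4.11-fold lower (2.90 to 5.96) and FURIN, which activates membrane-type MMPs and ADAMs, was 1.98-fold higher (1.85 to 2.12). In FaDu TMPRSS4 was 4.48-fold higher (2.72 to 7.73) and CTSL 2.45-fold higher (2.23 to 2.69).

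Of 32 regulators of metalloprotease transcription, 9 were listed in SCC1, all lower, and 12 in FaDu, 10 lower and 2 higher. The lower ones are 28.1% of the list in SCC1 and 31.2% in FaDu, beside 8.19% and 6.44% of all tested genes. They include FOSL1, the target of the siRNA, and the list was drawn up with earlier results known. ETS1, whose protein acts with AP-1 at collagenase promoters, went from 117.0 to 20.9 CPM in SCC1 and from 292.0 to 26.2 CPM in FaDu. RUNX2, a known activator of MMP13, had log2 ratios of -2.84 in SCC1, from 109 and 13 reads, and -1.58 in FaDu. Its FaDu control level was low, at 3.75 CPM. The related RUNX1 had log2 ratios of -1.14 in SCC1 and -2.03 in FaDu. IL1B, a cytokine that induces collagenases and stromelysins, went from 248.1 to 19.0 CPM in SCC1 and from 142.6 to 22.6 CPM in FaDu. ETS1, RUNX1, RUNX2 and IL1B were thus lower in both lines. Their part in the protease values was not tested.

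Of 22 matrix proteins that metalloproteases cleave, 2 were listed in SCC1, or 9.09%, and 6 in FaDu, or 27.3%, each of them lower. Over all tested genes 8.19% were lower in SCC1, near the share of the list, and 6.44% in FaDu. Tenascin-C, encoded by TNC, went from 230.3 to 77.8 CPM in SCC1 and from 18.8 to 9.16 CPM in FaDu. COL3A1, a fibrillar collagen and substrate of collagenases, was 3.53-fold lower in FaDu (2.22 to 5.86).

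The counts depend on scaling. Setting the median log2 ratio of all listed genes to 0 moves the zero point to -1.05 in SCC1 and -1.01 in FaDu. After that shift the FaDu genes kept their signs, but only MMP13 and ADAMTS6 of the 7 lower genes stayed at least 1.5-fold lower, with MMP10 at -0.06. The split of all listed genes moved with it from 40.6% to 67.9% higher in SCC1 and from 42.5% to 65.7% in FaDu. Most listed genes are lower and small differences were filtered out, so the construction of the tables places this median among lower genes.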

How the data were processed

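RNA-seq of 4 libraries was analysed from 1 table per line. TopHat, Cufflinks and build hg18 are named per the submitters' processing notes. The counter, the strand setting and the normalization were not given in the sources used here. The authors deposited CPM in 2 columns per table, a signed fold score, and a p-value and FDR, per the file headers. Of the CPM values, 100% were whole multiples of 1 read within 0.01, and reads were recovered from these steps. The number of tested genes was taken as FDR divided by p-value for the top gene, and no deposited p-value exceeded 0.05. The 2 at the end of the SCC1 control column's name has no explanation in the labels.

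Folds are CPM ratios without a pseudocount, and a fold of at least 1.5 counted as higher or lower. Ratio intervals are exact binomial, and differences of log2 ratios have Wald intervals. As an added alternative, edgeR 4.0.16 (R 4.3.3) ran a likelihood ratio test on the recovered reads at an assumed dispersion of 0.05, which called all 1903 SCC1 genes and all 1545 FaDu genes listed, with p-values within 1% of the authors'; at 0.16 it called 483 and 461. That test compares 2 libraries, not the conditions. At 0.05 it repeats the authors' p-values, none of which exceeded 0.05, so its calls were fixed in advance. Scripts were tested on simulated data. Lengths and shared windows came from GENCODE v29, gene order and promoters from RefSeq. No protein sequence was used here.

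The 9 genes and all lists were chosen with earlier results of these data known. The text names FOSL1, the 9 genes, every listed family gene, and examples from up to 6 genes per line of each other list by size of the log2 ratio among genes reaching 5 CPM. The rule takes RUNX2 in SCC1 and RUNX1 in FaDu, and their values in the other line are given beside. Cell type markers, COL6A3 among them, fall outside that rule and were named after their values were seen. One gene that this rule takes is not reported here. Gene coordinates in hg18 are not printed. Of the 9 genes, 3 matched the promoter table. Computing used Python 3.11.15 with SciPy 1.17.1, pandas 2.3.3, matplotlib 3.10.9 and numpy 2.4.6.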

Additional observations from a re-analysis of the deposited data

How the results depend on the processing

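Of 115 alternative values, 88 kept their direction and stayed within the counting interval, or within 1.5 times for a count, 27 moved and 0 reversed. Some settings, named below, could not move a value, so the 88 include values that were the same by construction. With the median log2 ratio of listed genes set to 0, log2 ratios became 2.35 for MMP12 and 2.27 for TIMP2 in SCC1, and in FaDu -0.16 for MMP1, -0.12 for MMP2, -0.46 for MMP3, -0.062 for MMP10, -0.997 for MMP13, 2.41 for TIMP2 and -0.42 for ADAM19. The same scaling left 2 of the 7 lower genes, 4 of the 10 lower family genes in FaDu and 0 of the 1 in SCC1. With the authors' FDR under 0.05, counts were 0 higher genes in SCC1 and FaDu, 2 lower genes in FaDu, 0 higher and 0 lower family genes in SCC1, and 0 higher and 3 lower family genes in FaDu. With edgeR's test at an assumed dispersion of 0.16, they were 0 higher genes in both lines, 2 lower genes in FaDu, 0 family genes in either direction in SCC1, and 0 higher and 4 lower family genes in FaDu. At a dispersion of 0.05 the call of every listed gene was fixed in advance. That setting gave p-values within 1% of the authors', none of which exceeded 0.05, so it adds nothing to their filter. With TGACTCA or TGAGTCA alone, 0 of the 3 promoters held the AP-1 motif in place of 1. Adding 1 or 0.1 CPM before the log, asking for at least 1 or 5 CPM and a fold of at least 2 moved no value past these limits. No older symbol of the 9 genes or the family was found in either table, so that setting repeated the main counts. The setting of summed rows repeated the main ratios by construction. No paired analysis was possible because each group has 1 library, and for the same reason no library could be left out. The 7 reads of ADAMTS6 and 23 of MMP2 after siRNA limit how closely their folds are known.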

Other observations

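Across the metalloprotease family, 51 of the 83 genes had an entry in the promoter table, and 5 of these windows, or 9.80%, held TGANTCA, beside 7.71% of all windows. Apart from MMP10 and MMP7 they were MMP20, TFPI2 and ADAMTS12, each with TGAATCA, and none of those is in either table. With C or G at N, MMP7 was the only family gene with a match, beside 4.95% of all windows. Of the 10 listed family genes with an entry, MMP10 was the 1 with a match to TGANTCA.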
